A study of Mus musculus with 2 samples.

Results

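A set of 10 basic helix-loop-helix (bHLH) and Myc network genes was described: the E protein genes Tcf3, Tcf12 and Tcf4, the Id protein genes Id2 and Id3, the bHLH repressor gene Bhlhe40, and Myc, Max, Mxd4 and Mxi1 of the Myc network. They were chosen by name, with earlier results of these data known. Matching to the gene names of GENCODE M21 gave 10 of 10 genes among 55536 annotated genes. The measured RNA was polyadenylated RNA of inflammation-experienced regulatory T cells, taken from a male adult mouse aged 6 months and of the strain Foxp3CreERT2 x Rosa26YFP. These mice carry a tamoxifen-inducible Cre recombinase under the control of Foxp3, the defining gene of regulatory T cells, and a yellow fluorescent reporter in the Rosa26 locus, and the labels trace the primary cells to bone marrow haematopoietic cells. There is 1 group, with 1 biological replicate, of which 2 technical libraries were made from sheared fragments of 100 to 300 bp. The labels name neither the agent of inflammation nor a control, so every value below is a level in these cells or a difference between technical libraries, with no spread between animals.

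E proteins are transcription factors that dimerise through a helix-loop-helix and bind E-box sequences in DNA through a basic region. Id proteins have the helix-loop-helix but no basic region, so an E protein bound to an Id protein does not bind DNA. In T cells this balance takes part in thymic selection and in the fate of regulatory and effector cells. Myc binds E-boxes only as a dimer with Max, and Mxd proteins compete with Myc for Max and recruit the Sin3 corepressor.

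Several sets of sequence show what separates these proteins and their forms. They were taken from the GENCODE M21 transcripts on mouse genome mm10 and are written 5′ to 3′ along the transcript. The first set is the pair of alternative Tcf3 exons that make the E proteins E47 and E12, each of which holds a complete bHLH domain. The E47 exon lies at chr10:80410398-80410624 and the E12 exon at chr10:80412827-80413062, both on the minus strand. Capitals mark codons whose residue differs from, or has no partner in, the other exon. Of 75 aligned codons, 55 encode the same residue (73.3%), and the E12 exon is 9 nt longer.
Tcf3 E47 exon: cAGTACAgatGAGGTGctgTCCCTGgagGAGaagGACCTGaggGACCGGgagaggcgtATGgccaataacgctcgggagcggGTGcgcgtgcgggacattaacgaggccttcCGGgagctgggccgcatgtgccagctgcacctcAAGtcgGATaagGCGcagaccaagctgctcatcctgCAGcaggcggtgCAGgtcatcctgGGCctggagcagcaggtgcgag
Tcf3 E12 exon: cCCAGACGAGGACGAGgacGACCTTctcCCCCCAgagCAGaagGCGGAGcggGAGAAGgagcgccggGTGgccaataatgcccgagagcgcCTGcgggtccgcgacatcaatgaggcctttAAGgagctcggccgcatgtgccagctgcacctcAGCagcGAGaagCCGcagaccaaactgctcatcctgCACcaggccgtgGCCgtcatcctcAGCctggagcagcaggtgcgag

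The second set is a stretch of 16 codons that begins within the basic region and runs on beyond it. It was taken from a transcript of each exon form for Tcf3. For the other genes it came from the coding transcript with the most counts. The Tcf4 stretch is not shown. Capitals mark 4 codons, for a glutamate, an arginine or lysine, any residue and an arginine, which follow an asparagine or histidine at 2 or 3 residues' distance. This pattern was found once in 9 of the 11 member coding sequences searched, among which Tcf3 was entered in each exon form. It was found in 3.84% of the longest coding sequences of 21901 genes. It was not found in Id2 or Id3, which says only that these residues are not in those sequences. The members are bHLH and Id genes by choice, so these shares describe their sequences and test nothing. The second capital codon encodes arginine in Tcf3, Tcf12, Myc and Max, and lysine in Bhlhe40, Mxd4 and Mxi1. The stretches of Mxd4 and Mxi1 cross an exon junction.
Tcf3 (E47 form), chr10:80410513-80410560, minus strand: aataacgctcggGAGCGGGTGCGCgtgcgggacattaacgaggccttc
Tcf3 (E12 form), chr10:80412942-80412989, minus strand: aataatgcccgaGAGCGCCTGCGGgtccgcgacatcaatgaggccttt
Tcf12, chr9:71856420-71856467, minus strand: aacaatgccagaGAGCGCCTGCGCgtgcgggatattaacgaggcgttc
Bhlhe40, chr6:108661523-108661570, plus strand: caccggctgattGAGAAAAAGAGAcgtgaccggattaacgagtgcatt
Myc, chr15:61989663-61989710, plus strand: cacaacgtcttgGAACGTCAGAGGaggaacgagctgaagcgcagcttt
Max, chr12:76953211-76953258, minus strand: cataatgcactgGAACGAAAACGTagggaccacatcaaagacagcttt
Mxd4, within chr5:34178900-34184336, minus strand: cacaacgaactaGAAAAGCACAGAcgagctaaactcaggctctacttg
Mxi1, within chr19:53346458-53369566, plus strand: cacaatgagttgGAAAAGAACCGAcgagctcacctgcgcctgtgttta

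The third set is the junction at which the annotated long and short forms of Max differ. Max-202 holds an exon of 27 bases (chr12:76961263-76961289, minus strand), shown in capitals, and encodes 160 residues. Max-201 skips it and encodes 151.
Max-202: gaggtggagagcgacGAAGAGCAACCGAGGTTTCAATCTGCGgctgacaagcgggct
Max-201: gaggtggagagcgacgctgacaagcgggct

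The libraries held 15386113 (technical replicate 1) and 13604480 (technical replicate 2) gene counts. A second, smaller gene table of whole counts on GENCODE M4 genes held 3581589 and 3271045 counts, and ratios between members in it were added after seeing the data. In the larger table, a gene with no count could lie at up to 3 counts, or 0.195 and 0.221 CPM (counts scaled to a fixed library total). This limit and all intervals cover counting error alone, since PCR copies cannot be told from separate molecules here. The markers of the labelled cell type were present: all 6 regulatory T cell genes and all 7 T cell genes had at least 1 TPM (a transcript level scaled to transcript length and library size) in each library, with Foxp3 at 22.05 and 17.9 TPM. Of the 34 markers of other cell types, 8 did. B cell markers, whose cells also use Tcf3, Tcf4 and Id3, summed to 142 and 66.6 TPM, almost all of it in Igkc and Cd79b, while Pax5 had 0.23 and 0.29 TPM. Among 6 dendritic cell markers only Zbtb46 reached the threshold, Itgax had no read, and Siglech, of the plasmacytoid cells known for high Tcf4, had 6 and 2 counts. The part of such cells in the members' levels was not tested. In bulk RNA, fewer cells of a type and less RNA per cell cannot be told apart.

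All 10 members reached the threshold for detection, 1 TPM in each library, against 46.7% of the 22028 annotated protein-coding genes. Levels spanned the Id genes at the top, the Myc network and Bhlhe40 in the middle, and Tcf3, Mxi1 and Tcf4 at the bottom. The median member had 52.9 TPM, against 18.3 TPM for the 10288 detected protein-coding genes. Since the members were chosen with earlier results of these data known, both comparisons describe their levels and test nothing. In descending order of mean TPM the members were Id2, Id3, Mxd4, Myc, Bhlhe40, Max, Tcf12, Tcf3, Mxi1 and Tcf4. The neighbours Mxd4 and Myc, Max and Tcf12, and Mxi1 and Tcf4 had overlapping ranges over the libraries, and the other neighbours did not. With 1 condition and technical libraries only, no gene could be named for a pattern like that of a member.

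**Figure D1:**
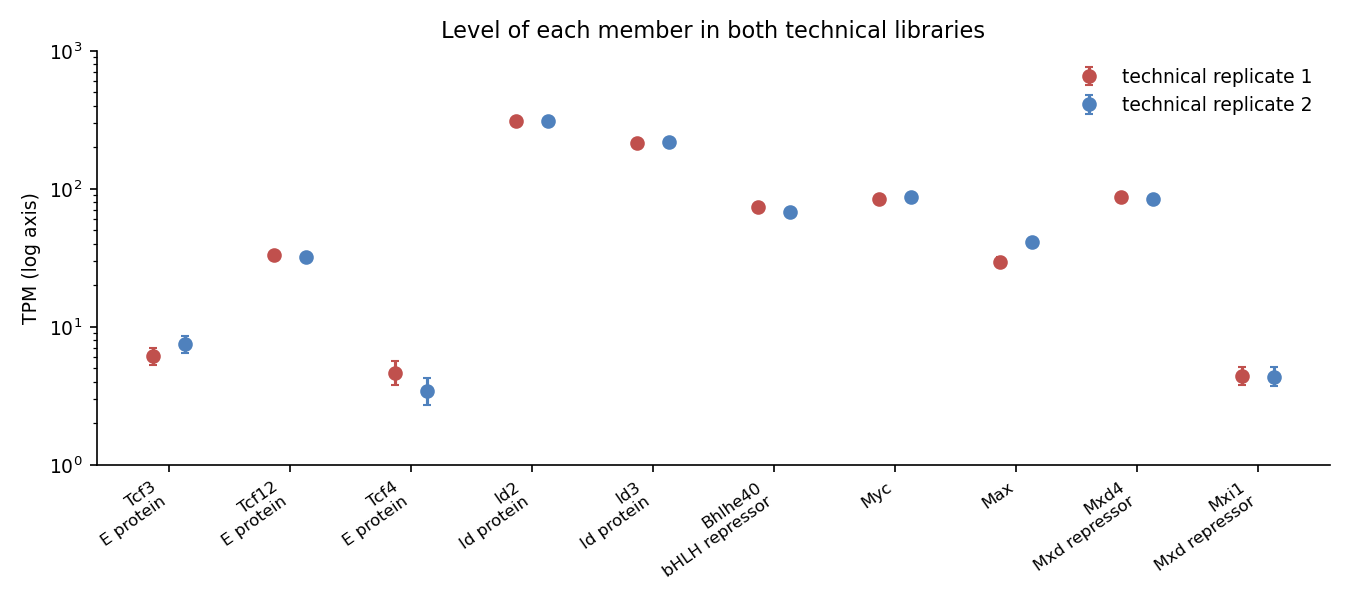
TPM of the 10 members (log axis) in technical replicate 1 (left point) and technical replicate 2 (right point), with bars for the exact 95% Poisson interval of the estimated count. Id2 and Id3 stand above 200 TPM in both libraries, Tcf3, Mxi1 and Tcf4 below 10 TPM, and Max shows the widest gap between its points among members above 10 TPM.

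Of the E proteins, Tcf12 had the highest level. Tcf12, which encodes the E protein HEB (chromosome 9, 71842688 to 72111871, minus strand), had 33.11 and 32.1 TPM in technical replicates 1 and 2, on 1459 and 1207.54 estimated counts. Tcf3, which encodes E12 and E47 (chromosome 10, 80409514 to 80433647, minus strand), had 6.13 and 7.47 TPM on 202 and 211 counts. Tcf4, which encodes E2-2 (chromosome 18, 69343356 to 69689079, plus strand), had 4.65 and 3.44 TPM on 101 and 78 counts. Tcf12 thus took 75.4% and 74.6% of the summed E protein TPM, Tcf3 14% and 17.4%, and Tcf4 10.6% and 8%. The Tcf12 range lay above both others without overlap, and Tcf3 lay above Tcf4 in each library.

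The Tcf4 level depended on the estimate. The posterior mean TPM, a second estimate that the authors deposited beside TPM, was 8.7 and 8.56 for Tcf4, which was 1.87 and 2.49 times its TPM. Its deposited credibility bounds, 6.78 to 10.7 and 6.61 to 10.6 TPM, lay above its TPM in both libraries. Over all detected genes the posterior mean was a median 0.922 and 0.913 times the TPM, and for the other 9 members the factor lay between 0.866 and 1.05. By the posterior mean Tcf4 ranked above Tcf3 and Mxi1 in both libraries. Tcf4 has 62 annotated transcripts, the most of any member, of which 7 held counts in both libraries and 12 in 1 library. The part of this in the 2 estimates was not tested.

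Transcripts annotated as protein-coding carried little of the Tcf12 level. They held 26.8% and 11.9% of Tcf12 TPM, which came to 8.88 and 3.81 TPM. The leading transcript in both libraries was Tcf12-220, annotated as a target of nonsense-mediated decay, the pathway that degrades transcripts with premature stop codons. It held 23.18% and 39.69% of Tcf12 TPM. Transcripts with a retained intron held 44.1% and 39.1%. The intact long form Tcf12-202 had 151.3 and 81.45 counts. Counted on protein-coding transcripts alone, the ratio of Tcf12 to Tcf3 was 1.55 in technical replicate 1 and 0.559 in technical replicate 2. Over all transcripts it was 5.4 and 4.3, and by counts of the smaller table per kilobase 2.77 and 1.42. On coding transcripts their order changed in technical replicate 2. A further 7 annotated genes of unconfirmed type lie within Tcf12 on its strand, at 0.24 to 5.24 TPM.

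Tcf12 is also transcribed from an internal start, whose product, the alternative form of HEB, lacks the first part of the long form. Transcripts from that start held 26.1% of Tcf12 counts (95% Clopper-Pearson interval 23.9% to 28.4%) in technical replicate 1 and 16.6% (14.5% to 18.8%) in technical replicate 2. The gap came from the coding transcript Tcf12-207, with 177.9 and 0 counts, while the retained-intron transcript Tcf12-217 had 203.37 and 199.94 counts. Their annotated starts, 71896396 and 71896086, lie near each other but differ, and they were counted together as the internal start. Tcf12-217 is annotated without a coding sequence. Intervals of shares treat estimated counts as counted reads and leave out the error of dividing reads between transcripts.

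Tcf3 was mostly of the E47 form. Transcripts with the E47 exon held 75.6% (69.2% to 81.6%) of the Tcf3 counts that could be split by the exon pair in technical replicate 1 and 84.3% (78.7% to 89%) in technical replicate 2. The E12 exon held the other 24.4% and 15.7%. The intervals of the libraries overlapped. Single transcripts agreed less: Tcf3-208 had 87.22 and 0 counts, Tcf3-205 had 0 and 54.94 counts, and both carry the E47 exon.

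Both Id genes were abundant. Id2 (chromosome 12, 25093799 to 25097140, minus strand), which in T cells is linked to effector fates, had 308.69 and 308.64 TPM on 4553 and 4018 counts. Id3 (chromosome 4, 136143497 to 136145755, plus strand), an immediate target of T cell receptor signalling linked to naive and memory states, had 216.01 and 219.08 TPM on 3232 and 2893 counts. Among the 10288 detected protein-coding genes, Id2 ranked 347 and Id3 515. Id2 exceeded Id3 1.43-fold and 1.41-fold, with no overlap of the libraries. One transcript led each gene: Id2-201 held 88.3% and 88.38% of Id2 TPM and Id3-201 held 95.41% and 95.75% of Id3 TPM. Of the other Id genes, Id1 had 0 and 8 counts (0 and 0.82 TPM) and Id4 0 and 2 counts, so neither was detected.

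The Id genes together held 525 and 528 TPM and the E protein genes 43.9 and 43 TPM. Their ratio was 12 in technical replicate 1 and 12.3 in technical replicate 2, or 12.1 ± 0.22 (SD, n = 2 technical libraries). It was 10.1 ± 0.078 with the posterior mean TPM and 8.65 ± 0.053 with counts of the smaller gene table per kilobase. On protein-coding transcripts it was 30.2 and 40.9, the highest of these values. There, 26.8% and 11.9% of Tcf12 TPM but 95.4% or more of Id2 and Id3 TPM was in coding transcripts. All 3 annotated Id2 transcripts are coding, so the annotation fixed the Id2 share at 100%. All of these ratios are of RNA and give no ratio of proteins.

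Genes that act with E proteins were partly expressed. Of 16 tissue-restricted bHLH partners, which pair with E proteins in lineages such as muscle, nerve and blood, only Ascl2 was detected, at 1.45 and 1.7 TPM. In this list, Twist1, Neurod1, Myod1, Nhlh1, Ptf1a and Tcf15 had no read in either library. Of 9 E protein cofactors, 5 were detected, led by the acetyltransferase gene Crebbp (51.6 and 52.1 TPM) and the bridging factor gene Ldb1 (38.5 and 41.86 TPM). Of the LMO genes, whose proteins bind Ldb1, Lmo4 was detected at 6.43 and 10.07 TPM, Lmo2 had 4 and 2 counts and Lmo1 had no read. Lmo4, named after its values were seen, had a lower count share in technical replicate 1 by the exact binomial test between the libraries (log2 ratio -0.57). Of 10 genes known as E protein targets in lymphocytes, 7 were detected, led by Cd4 (237.69 and 247.1 TPM), Il7r (143.81 and 141.58 TPM), Cxcr5 (85.41 and 85.06 TPM) and Socs3 (35.29 and 39.37 TPM). Rag1 and Rag2, the recombinase genes of developing lymphocytes, had no read, and Ptcra, of the pre-T cell receptor, had 5 and 1.04 counts.

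Bhlhe40 (chromosome 6, 108660629 to 108666925, plus strand), a repressor that takes part in T cell cytokine control, had 73.57 and 67.85 TPM on 2438.99 and 2132 counts. It lay above the members Max and Tcf12 and below Myc without overlap. Its intact transcript Bhlhe40-201 held 81.85% and 88.3% of its TPM and 60.22 and 59.91 TPM. In TPM, this form thus differed less between the libraries than the gene total did. The rest was in 2 retained-intron transcripts. By counts, Bhlhe40-201 held 94% and 94.5%, and the gene total was close between the libraries, at 159 and 157 CPM. Among 10 other genes of the bHLH-Orange family, only Hes6 was detected, at 9.87 and 10.5 TPM. Hes5 had 0.92 and 3.35 TPM on 14 and 45 counts, so it reached 1 TPM in technical replicate 2 only. It was called lower in technical replicate 1 by the exact binomial test (log2 ratio -1.83). The close relative Bhlhe41 had 0.26 and 0.25 TPM, and the Notch target gene Hes1 had 1 and 2 counts.

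**Figure D2:**
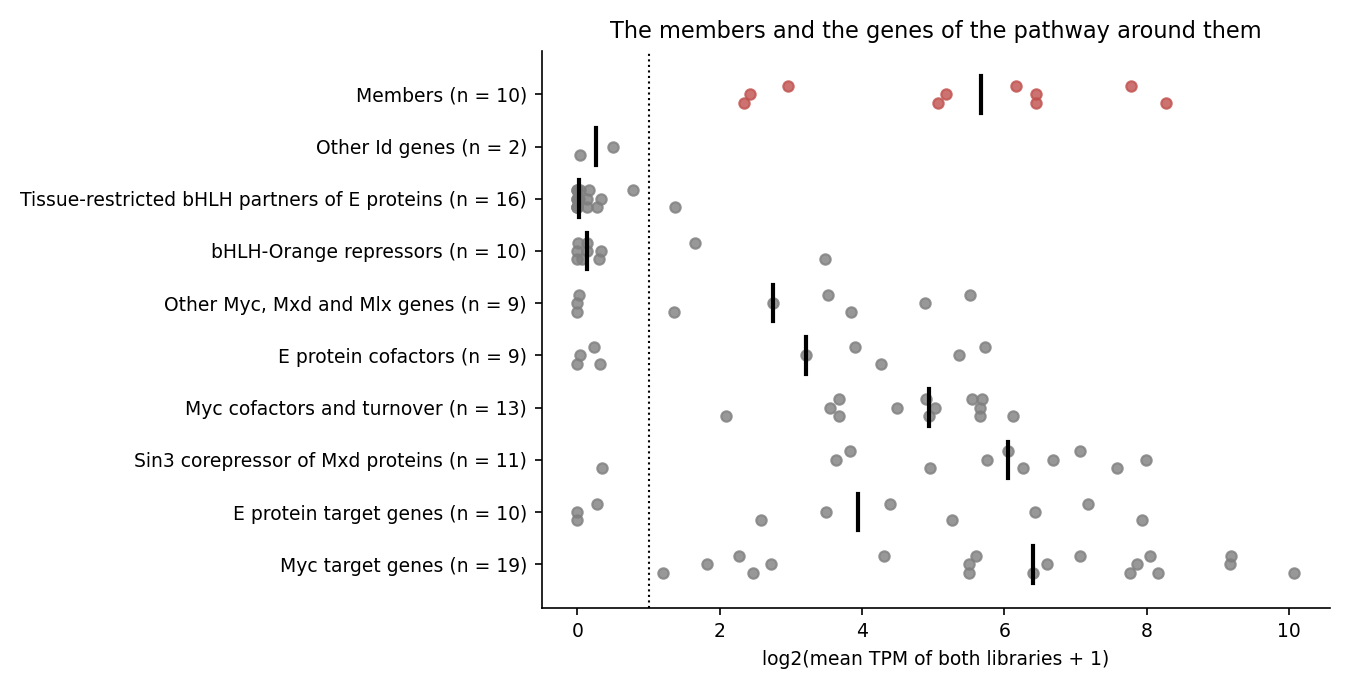
Level of the 10 members (top row) and of the genes of 9 lists around them, as log2(mean TPM of both libraries + 1), with 1 point per gene, a black bar at the list's median and a dotted line at 1 TPM. The tissue-restricted bHLH partners and the bHLH-Orange genes lie near 0, with medians of 0.0175 and 0.095 TPM, while the Myc target genes have a median of 83.3 TPM.

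Myc (chromosome 15, 61985391 to 61990374, plus strand), the activator of growth and metabolic genes, had 84.99 and 86.99 TPM on 2258 and 1996 counts. Its partner Max (chromosome 12, 76937269 to 76962201, minus strand) had 29.46 and 40.89 TPM on 535 and 661 counts. Myc thus exceeded Max 2.88-fold and 2.13-fold by TPM, and 6.11-fold and 5.17-fold by counts of the smaller gene table per kilobase. Of the other Myc genes, Mycn and Mycl had no read in either library.

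Myc starts at nearby promoters. Myc-202, from the downstream start, held 52.3% (50.2% to 54.4%) and 48.2% (46% to 50.4%) of Myc counts. Myc-201 and Myc-205, which start 173 nt upstream of it, held 43.5% and 44.2%. These transcripts are identical in sequence, and each was given 491.01 and 441.12 counts. They differ only in the annotated start of translation: Myc-201 is annotated with a coding sequence of 1362 nt, which begins upstream of the 1317 nt of Myc-202 and Myc-205. Reads cannot tell the forms apart.

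Both Max forms were present. Among counts of Max-201 and Max-202, Max-201, without the 27-base exon, held 53.1% (48.5% to 57.6%) in technical replicate 1 and 72.1% (68.3% to 75.6%) in technical replicate 2, and these intervals did not overlap. The error of dividing reads between the transcripts is not in these intervals. Max-201 had 257.03 and 441.22 counts and Max-202 had 227.15 and 170.88 counts. The higher Max count of technical replicate 2 was thus in Max-201, whose counts exceed those in technical replicate 1, while Max-202 had fewer.

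The Mxd repressors differed in level by a wide margin. Mxd4 (chromosome 5, 34173883 to 34187720, minus strand), also called Mad4, had 87.46 and 85.02 TPM on 3022.53 and 2473.65 counts. Mxi1 (chromosome 19, 53310518 to 53375810, plus strand), also called Mad2, had 4.42 and 4.36 TPM on 189 and 153 counts. Mxd4 exceeded Mxi1 19.8-fold and 19.5-fold over all transcripts and 12.3-fold and 11.3-fold over protein-coding ones. The ratio of Mxd4 to Myc was 1.03 and 0.977 over all transcripts and 0.553 and 0.505 over protein-coding ones, so Mxd4 lay near Myc in the first measure and below it in the second. By counts of the smaller table per kilobase, with 80 and 45 counts for Mxd4, its ratio to Myc was 0.0603 and 0.0381 and its ratio to Mxi1 12.3 and 4.92. The place of Mxd4 beside Myc thus rests on the larger table.

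Noncoding and retained-intron transcripts held the rest of the Mxd4 level. The coding transcript Mxd4-201 held 53.72% and 51.65% of Mxd4 TPM, on 2231.99 and 1842.82 counts. Mxd4-203, a noncoding transcript of 787 nt at the 3′ end of the gene, held 36.23% and 40.04% of the TPM on 290.54 and 275.83 counts. The retained-intron transcript Mxd4-204 held 10.05% and 8.31%. The antisense gene Gm42846 overlaps Mxd4, with 5.27 and 1.44 TPM. Since the strand setting of the counting is not given in the sources used here, their reads may not be separable.

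Mxi1 has alternative first exons, which give proteins of different length and start. Among transcripts of 5 or more exons, those from the downstream first exon held 93% (87.9% to 96.1%) of counts in technical replicate 1 and 72.7% (64.6% to 79.7%) in technical replicate 2. The upstream first exon had 12.5 and 39.8 counts. The intervals of the libraries did not overlap in this share, but they leave out the error of dividing reads between transcripts. Both libraries had most counts from the downstream exon.

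Most other Myc network genes were expressed at lower levels than Myc. Of 9 further Myc, Mxd and Mlx genes, 6 were detected, and the highest were the Mxd partner gene Mlx (49.55 and 39.94 TPM), the Max-binding repressor gene Mga (29.72 and 27.46 TPM), Mlxip (13.5 and 13.14 TPM) and Mxd1 (9.75 and 11.17 TPM). All 13 Myc cofactor and turnover genes were detected, led by Bin1 (68.96 and 68.62 TPM), the ubiquitin ligase gene Huwe1 (50.03 and 50.91 TPM), the acetyltransferase adaptor gene Trrap (47.74 and 50.91 TPM) and the remodeller gene Ep400 (51.52 and 46.93 TPM). Of 11 genes of the Sin3 corepressor that Mxd proteins recruit, 10 were detected, led by the histone-binding gene Rbbp4 (262.39 and 244.14 TPM) and the deacetylase gene Hdac1 (198.73 and 181.57 TPM). Sap30 had 4 and 3 counts. All 19 Myc target genes were detected, led by the nucleolar gene Npm1 (1085.1 and 1057.66 TPM), the lactate dehydrogenase gene Ldha (588.35 and 575.96 TPM), the cyclin gene Ccnd2 (570.06 and 575.0 TPM) and the ribosome assembly gene Nop56 (282.9 and 283.62 TPM). Over the 9 lists, 62 of 99 genes were detected (62.6%) and 14 had no read. Levels of targets describe these cells and do not show that a member acts on them.

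**Figure D3:**
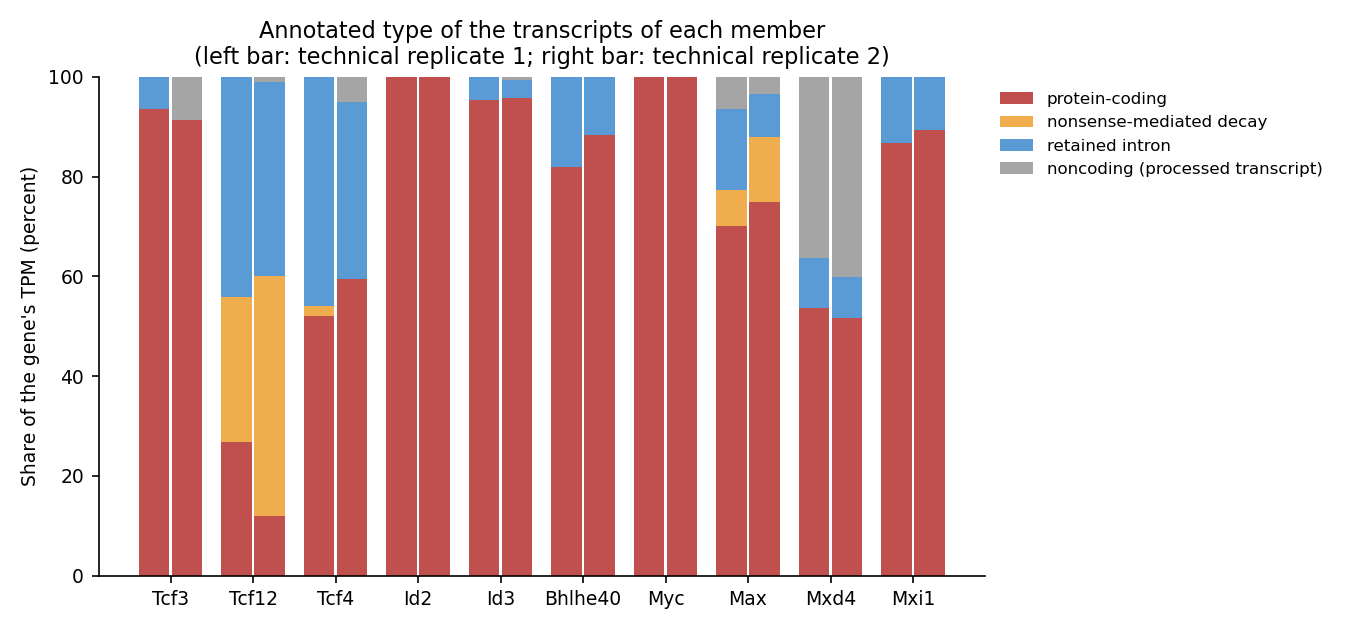
Share of each member's TPM (percent) in transcripts of each annotated type, with technical replicate 1 as the left bar and technical replicate 2 as the right bar. Id2 and Myc are wholly in protein-coding transcripts, the only type annotated for them (3 of 3 and 8 of 8 transcripts). Tcf12, with 11 of 21 transcripts annotated as coding, has 26.8% and 11.9% of TPM there. Mxd4, with 2 of 4, has 53.7% and 51.7%.

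**Figure D4:**
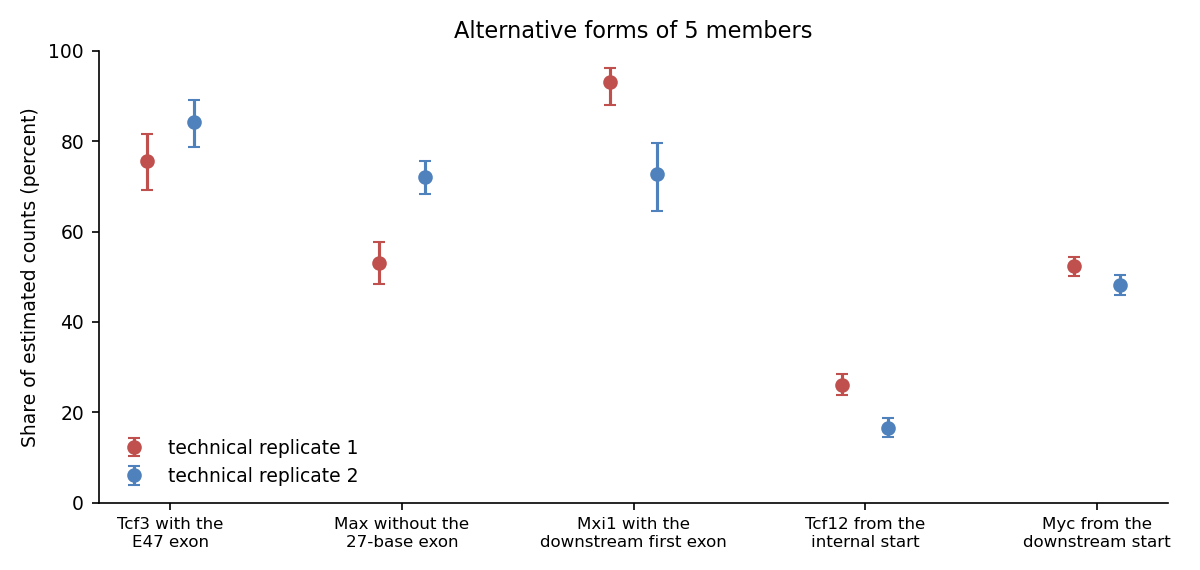
Share of estimated counts (percent) in the named form of 5 members, in technical replicate 1 (left point) and technical replicate 2 (right point), with 95% Clopper-Pearson intervals. The intervals overlap for Tcf3 and Myc and do not overlap for Max, Mxi1 and Tcf12. They leave out the error of dividing reads between transcripts. How often such intervals fail to overlap over all genes was not counted, so these overlaps describe the forms only.

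The libraries were compared gene by gene to measure the technical error of the members. The test was a two-sided exact binomial test on rounded estimated counts with Benjamini-Hochberg adjustment over all genes tested. It compares these libraries and no conditions, and assumes that only read sampling separates them. It called 2 of 10 members, against 3328 of 17334 genes (19.2%), a share near that of the members. Max was lower in technical replicate 1, at 34.8 CPM against 48.6 CPM in technical replicate 2, with a log2 ratio of -0.48 and an adjusted p of 8.69e-07. Mxd4 was higher in technical replicate 1, at 196 CPM against 182 CPM in technical replicate 2, with a log2 ratio of 0.11 and an adjusted p of 0.0265. The other members had log2 ratios between -0.24 for Tcf3 and 0.19 for Tcf4. Of the 68 list genes tested, 14 were called (20.6%), 6 of them higher and 8 lower in technical replicate 1.

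When edgeR's exact test was given the common dispersion of all genes (coefficient of variation 0.105), it called 0 members and 312 genes (1.8%). Of the members, 1 had an unadjusted p under 0.05, which was Max (p = 0.038 by this edgeR exact test). Max was thus called where only read sampling was allowed for. With the common dispersion it was not called (adjusted p = 0.451 by the edgeR exact test). The lack of a call does not show that the difference in Max is no larger than the general spread.

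**Figure D5:**
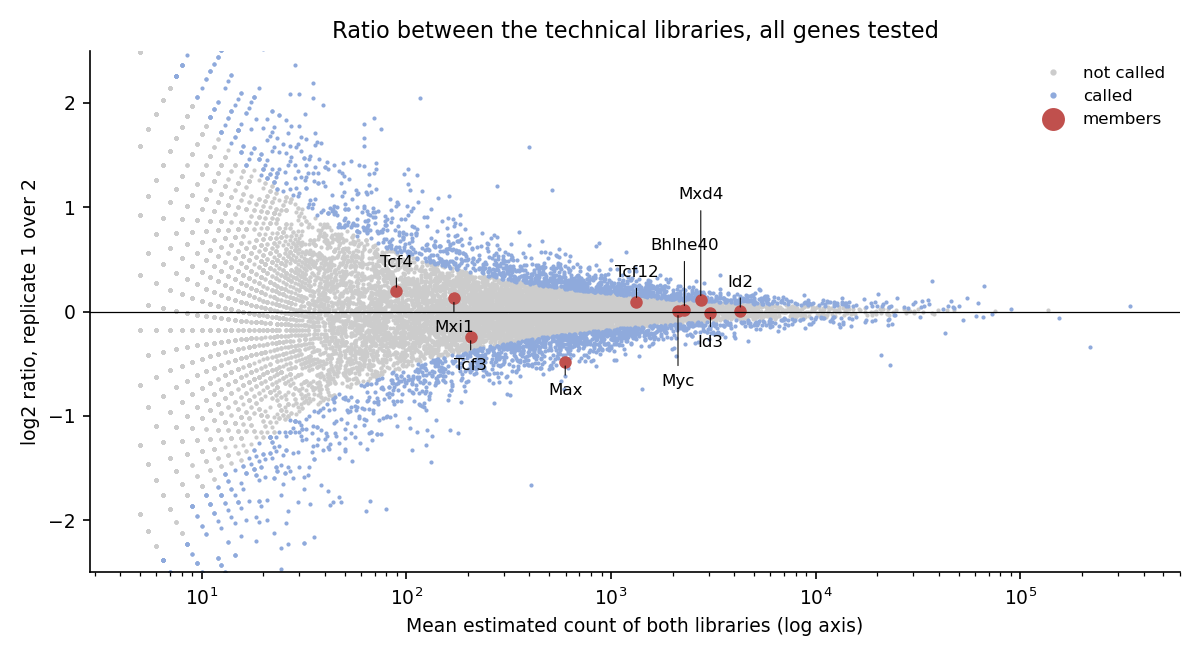
Log2 ratio of technical replicate 1 over technical replicate 2 against the mean estimated count of both libraries (log axis) for the 17334 genes tested, with called genes in blue, others in grey and the members in red, where 339 genes outside ±2.5 are not drawn. Max lies among the called genes below 0, and the other members lie within 0.25 of 0.

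The smaller gene table gave a partly different picture. It held a median 40% of the counts of the larger table (quartiles 22.6% and 57.4% over 10538 genes). Mxd4 kept 2.27%, at percentile 4.18 of these genes, with 80 and 45 counts in the smaller table. Mxi1 kept 5.56%, with 8 and 11 counts. The Id genes kept 16.1% (Id2) and 18.7% (Id3), and Myc kept 46.1%, with 1026 and 937 counts. Per kilobase of gene length the smaller table ranked Id2, Id3 and Myc highest, at 565 and 556, 463 and 451, and 469 and 438 counts per kilobase. The lengths are those of the larger table and differ between the libraries, so this measure is not independent of that table. Id3 and Myc overlapped in that measure, and Mxd4 ranked 8 there and 3 by TPM. Tcf3 was called between the libraries in this table, with 74 counts in technical replicate 1 and 117 in technical replicate 2, a log2 ratio of -0.79 and an adjusted p of 0.00873 by the exact binomial test. It was the only member of 10 called there, against 729 of 11019 genes (6.62%). Neither Max (adjusted p = 0.411) nor Mxd4 (adjusted p = 0.0948) passed that exact test. The cause of the gap between the tables was not tested.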

How the data were processed

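Estimated counts (expected counts), posterior mean counts, TPM, FPKM, credibility bounds of TPM (signal values) and the percent of TPM that each transcript takes of its gene were computed and deposited by the authors for mm10 and GENCODE M21, per the file headers and the text deposited with each library. The smaller gene table holds whole read counts on GENCODE M4 genes, as deposited. Its counts per kilobase use the gene lengths given in the larger table for each library. TPM and FPKM are scaled to length and library by the authors. Aligner, quantifier, versions and strand setting are not given in the sources used here. Reads divided between transcripts or overlapping genes by estimation make those levels uncertain. Entries without a gene (0.174% and 0.158% of counts) were left out.

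The labels number the libraries as technical replicates 1 and 2 of biological replicate 1, so any p-value or SD concerns technical libraries only. The p-value of the binomial test measures departure from read sampling, and only the edgeR test includes a spread between libraries. Detection meant 1 TPM in both libraries. The log2 ratios printed above are of rounded counts over TMM library sizes, as in the test. Log2 ratios of TPM, used only to compare settings, had a pseudocount of 1. For the test, estimated counts were rounded, genes with fewer than 10 summed counts were left out, and library sizes were scaled by TMM (edgeR 4.0.16, R 4.3.3), with an adjusted p under 0.05 as the threshold. Alternatives used DESeq2 1.42.0 size factors, other count minimums, posterior means, the smaller table, and edgeR with a common dispersion. Intervals are exact at 95%. All 10 members are named. Of each list, the 4 highest genes and those without detection could be named. The members and lists were chosen with earlier results of these data known. Values of some list genes are not reported here.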

Additional observations from a re-analysis of the deposited data

How the results depend on the processing

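No paired analysis was possible because the labels give 1 group only. The count of members detected was 10, and 8 at a threshold of 5 TPM, where Mxi1 and Tcf4 dropped out. The members called between the libraries numbered 2 in 6 of the settings, 1 with the smaller gene table and 0 with the edgeR common dispersion. The genes called overall numbered 3328, against 729 and 312 under those same 2 alternatives, and 2802 to 3374 under the others. The smaller table holds fewer counts, and the common dispersion allows more spread than read sampling. The Id to E protein ratio of 12.1 moved to 10.1 with the posterior mean TPM, 35.6 on protein-coding transcripts and 8.65 with the smaller table, and stayed at 12.1 with FPKM. It was 12 to 12.3 with 1 library left out. No called member changed sign under another pseudocount, CPM or the smaller table. Of 10 members' levels, 7 moved by more than the SD between the libraries on protein-coding transcripts and 8 with the posterior mean. The shares of leading transcripts moved by more than that SD for 7 members by counts and for 3 by the posterior mean. Depth limited Tcf4 and Mxi1 most, with 78 to 189 counts, so their transcript shares rest on few reads.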
